A study of Mus musculus with 6 samples.

Results

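Messenger RNA of 10 mouse genes for making, inactivating and sensing prostaglandins was examined in cultured mesenchymal stem cells given an siRNA against the formin Dia2 or a control siRNA. The 10 genes were picked by symbol from a table of 23358 gene rows, and every symbol had a row. The cells were grown from bone marrow of C57BL/6 mice, carried the cell type label of bone marrow-derived mesenchymal stem cells, and were used at passage 6 to 12. After 24 h of adhesion an siRNA was delivered with Lipofectamine overnight, fresh medium followed in the morning, and RNA was taken 24 h later. The Dia2 siRNA group (3 libraries) was given an siRNA at 50 nM against Dia2, which is encoded by Diaph3 and nucleates and lengthens actin filaments. The control siRNA group (3 libraries) was given a non-targeting siRNA. A single sequence against Dia2 was used, with no second siRNA and no untransfected cells among the libraries. Whether libraries of 1 group stem from separate cultures is not stated in the labels, and the p-values therefore reflect a spread that may be purely technical.

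Prostaglandins are local lipid signals made from arachidonic acid. A phospholipase A2 frees the fatty acid from membranes, a cyclooxygenase turns it into the unstable intermediate prostaglandin H, and a terminal synthase converts that into the individual products. Prostaglandin E acts through a family of EP receptors, of which the EP2 and EP4 types raise cyclic AMP, whereas EP1 acts mainly through calcium. In mesenchymal stem cells prostaglandin E is known as a secreted immune modulator, and in bone it acts on osteoblast progenitors.

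Total counts ranged from 78529650 to 95573070 in the Dia2 libraries and from 70538768 to 110006338 in the control libraries. The siRNA target, listed as Diap3, stood at 7.52, 8.37 and 7.39 CPM (counts scaled to library size with TMM factors) in Dia2 replicates 1, 2 and 3, against 84.7, 80.1 and 84.8 CPM in control replicates 1, 2 and 3 (log2 fold change -3.42 ± 0.07 SE, edgeR adjusted p = 1.66e-11). The ribosomal precursor Rn45s held the largest share of counts in Dia2 replicate 1 (10.9%) and control replicate 3 (11.7%), against 6.0% to 7.41% in the other libraries. Of 12 markers of mesenchymal stem cells 11 were tested, and their list summed to 5270 to 5338 CPM in the Dia2 libraries and to 2914 to 3215 CPM in the control libraries. Of these 11 tested markers 10 were called higher, beside 29.3% of all genes tested. The sum was mostly Cxcl12 (2097 CPM in Dia2 and 815 CPM in control libraries) and Itgb1 (1831 CPM in Dia2 and 1428 CPM in control libraries). Thy1, a marker often used to define these cells, averaged 0.0356 CPM in Dia2 and 0.02 CPM in control libraries and was below the filter. Markers of other cells were scarce, with sums of 6.25 to 8.21 CPM in Dia2 and 11.3 to 12.5 CPM in control libraries for 10 blood and macrophage genes, of which Tyrobp was at 0 throughout. Of these 10 genes 5 were tested, and 3 were called lower, beside 29.9% of all genes tested. The 3 were Cd53 (0.675 CPM in Dia2 and 3.41 CPM in control libraries), Itgb2 (0.892 and 2.65 CPM) and Cd68 (0.967 and 1.99 CPM). Csf1r (3.0 and 2.92 CPM) and Lyz2 (1.09 and 0.779 CPM) were tested and not called. The corresponding sums were 8.72 to 11.05 CPM in Dia2 and 15.3 to 18.4 CPM in control libraries for 7 mast cell and megakaryocyte genes, mostly Kit (7.94 CPM in Dia2 and 14.6 CPM in control libraries), with Gata1 and Fcer1a at 0, and 0.812 to 0.979 CPM in Dia2 and 1.34 to 1.51 CPM in control libraries for 6 endothelial genes, with Emcn at 0. From these 2 lists, with 2 and 3 genes tested, Kit and the endothelial Kdr (0.646 CPM in Dia2 and 1.15 CPM in control libraries) were called, both lower. All 3 sums were lower in every Dia2 library than in any control library. Groups without overlap, in either direction, were seen for 64.6% of all genes tested. The part of these other cell markers in the results below was not tested.

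The cyclooxygenase gene Ptgs2 and the receptor gene Ptger4 fell most among the 10, while Ptger1 and the scarce Hpgd rose. Of the 10 genes 8 passed the filter on low counts, and 7 of these differed at an adjusted p of 0.05 over all 14151 genes tested (edgeR's quasi-likelihood test with Benjamini-Hochberg adjustment), 3 of them higher and 4 lower with Dia2 siRNA. Differences were common in these libraries: 59.2% of all tested genes were called, 29.3% higher and 29.9% lower. The 3 Dia2 libraries lay wholly above or wholly below the 3 control libraries for the same 7 genes, and this held for 64.6% of all genes tested. The median log2 fold change was -0.05 over the 8 genes and 0.01 over all genes tested, and the median of its absolute value was 0.43 and 0.30. Falls of at least 2-fold, as that of Ptgs2, made up 2.76% of all tested genes, and rises of at least 2-fold, as that of Hpgd, 5.82%. In bulk RNA of this kind, fewer expressing cells and less RNA per cell cannot be told apart.

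**Figure D1:**
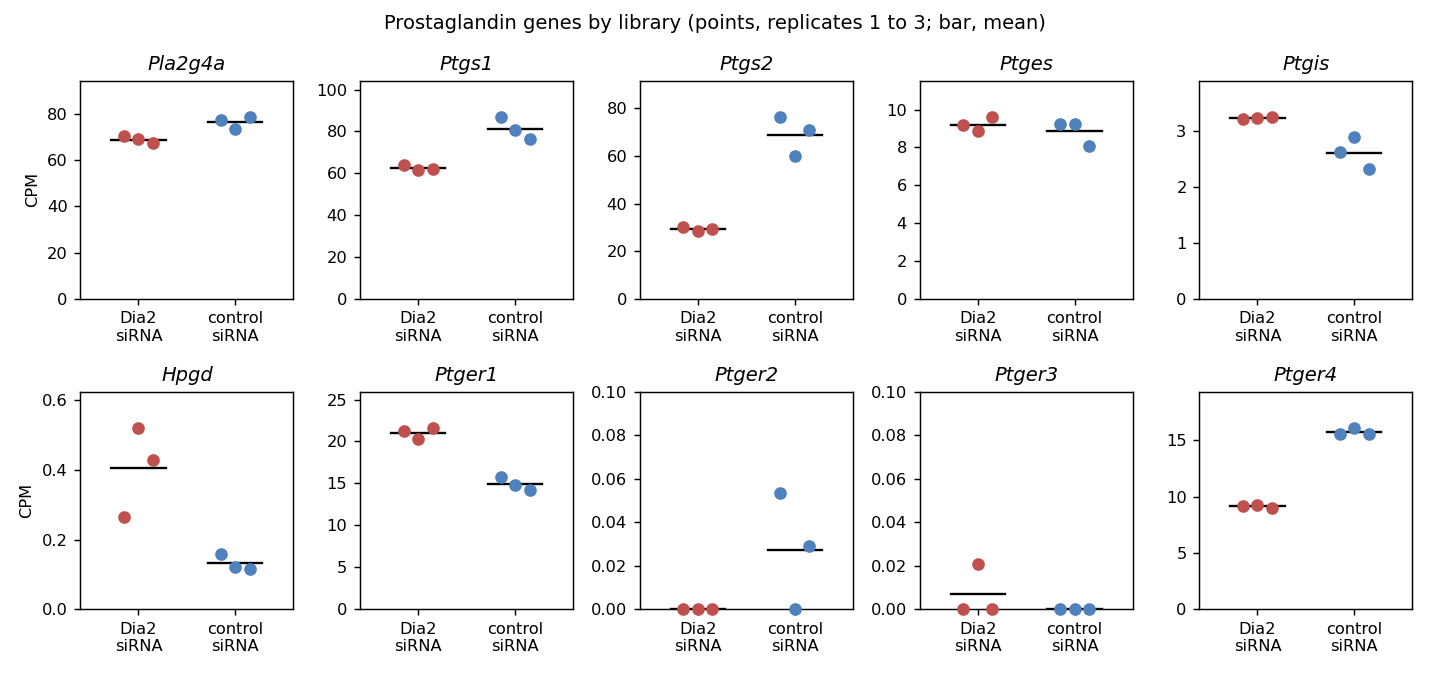
TMM-scaled CPM of the 10 genes, with Dia2 siRNA in red and control siRNA in blue; points are libraries in the order of replicates 1 to 3, black bars are means, and every vertical axis starts at 0 with its own range. The 3 Dia2 points lie below all control points for Pla2g4a, Ptgs1, Ptgs2 and Ptger4, above them for Ptgis, Hpgd and Ptger1, and overlap them for Ptges, while Ptger2 and Ptger3 are at or near 0.

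Pla2g4a, which encodes the cytosolic phospholipase A2 that releases arachidonic acid, was one of the most abundant of the 10 and moved little. It had 70.4, 69.0 and 67.4 CPM in Dia2 replicates 1, 2 and 3, against 77.5, 73.5 and 78.6 CPM in control replicates 1, 2 and 3. The groups did not overlap, but the gap was small: the log2 fold change was -0.15 ± 0.05 (SE, edgeR adjusted p = 0.0143), or 1.11-fold lower. The call was lost without Dia2 replicate 2 (adjusted p = 0.0591) or without Dia2 replicate 3 (adjusted p = 0.0642). The row lies at chr1:149829622-149961284 (GRCm38).

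Both cyclooxygenase genes fell, Ptgs2 by more than Ptgs1. Ptgs1, the form that most tissues express at rest, had 63.8, 61.7 and 62.1 CPM in Dia2 replicates 1, 2 and 3, against 86.7, 80.6 and 76.3 CPM in the control replicates. Every Dia2 library was below every control library, and the log2 fold change was -0.38 ± 0.05 (SE, edgeR adjusted p = 6.5e-05), or 1.3-fold lower. Ptgs2, the form induced by growth factors and inflammatory signals, had 30.2, 28.3 and 29.2 CPM in the Dia2 replicates, against 76.2, 59.9 and 70.8 CPM in the control replicates. The Dia2 libraries agreed closely among themselves, whereas control replicate 2 was lower than the other controls yet still far above every Dia2 library. Its log2 fold change was -1.24 ± 0.08 (SE, edgeR adjusted p = 8.94e-08), or 2.36-fold lower. The Ptgs1 row lies at chr2:36230426-36252269 and the Ptgs2 row at chr1:150100124-150108012.

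The balance of the pair shifted. On the deposited RPKM scale, which divides counts by the listed gene length and so allows genes to be compared, Ptgs1 averaged 18.1 ± 0.519 in Dia2 and 24.2 ± 2.41 in control libraries (SD, n = 3 each), and Ptgs2 5.86 ± 0.174 in Dia2 and 14.2 ± 1.7 in control libraries. Their summed RPKM was 24.0 ± 0.675 in Dia2 and 38.4 ± 3.59 in control libraries. Ptgs2 made up 24.6%, 24.1% and 24.5% of that sum in Dia2 replicates 1, 2 and 3, against 37.8%, 33.9% and 39.1% in the control replicates. The shares did not overlap and differed by -12.5 percentage points. A two-sided exact permutation test gave p = 0.1, the smallest it can give with 3 libraries against 3, so this design cannot reach 0.05.

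**Figure D2:**
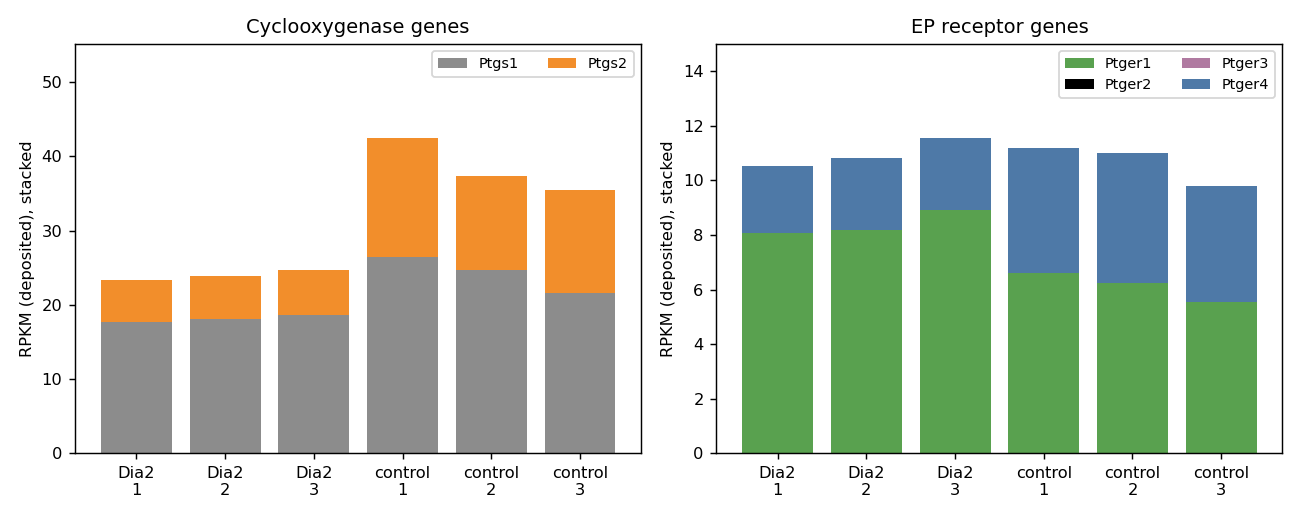
Deposited RPKM of the cyclooxygenase genes (left) and of the EP receptor genes (right), stacked by library with the 3 Dia2 libraries left of the 3 control libraries. Ptgs2 makes up about 24% of its bars with Dia2 siRNA and 33.9% to 39.1% with control siRNA, and the EP bars keep a similar height while the Ptger4 part is smaller with Dia2 siRNA.

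The promoters of the cyclooxygenase pair are shown because one gene is the inducible form and the other is not, and yet both fell. Each window runs from 250 bases before to 50 after the RefSeq start (GRCm38.p6), and capitals mark matches to 5 motifs: TATAAA on the gene's own strand, and on either strand CGTCA (the core of a cyclic AMP response element), CACGTG (an E-box), GGGCGG (a GC box) and TTGCGCAA (a palindromic C/EBP motif).
Ptgs2, chr1:150099781-150100080, plus strand: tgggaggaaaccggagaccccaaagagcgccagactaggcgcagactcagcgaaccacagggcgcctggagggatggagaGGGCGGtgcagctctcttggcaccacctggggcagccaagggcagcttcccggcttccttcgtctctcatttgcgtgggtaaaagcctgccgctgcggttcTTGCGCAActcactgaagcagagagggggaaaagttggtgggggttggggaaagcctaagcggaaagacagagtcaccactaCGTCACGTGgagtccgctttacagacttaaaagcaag
Ptgs1, chr2:36230176-36230475, plus strand: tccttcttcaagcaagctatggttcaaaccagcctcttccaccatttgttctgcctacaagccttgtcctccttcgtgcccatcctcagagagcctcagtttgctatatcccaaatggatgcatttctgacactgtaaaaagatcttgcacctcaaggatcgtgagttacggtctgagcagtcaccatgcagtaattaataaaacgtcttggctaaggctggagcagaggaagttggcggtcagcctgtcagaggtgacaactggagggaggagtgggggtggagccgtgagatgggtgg
The Ptgs2 window held 4 of the 5 motifs, with GGGCGG at -170, TTGCGCAA at -69, and CGTCA at 13 overlapping CACGTG at 16, counted in bases from the RefSeq start. The Ptgs1 window held none. Among all 32851 RefSeq promoter windows, 35.7% held GGGCGG, 20.8% CGTCA, 8.32% TATAAA, 7.15% CACGTG and 0.183% TTGCGCAA. Promoter windows were found for 8 of the 10 genes, not for Ptgis and Ptger1. Of the other 6, Ptges, Ptger3 and Ptger4 held only GGGCGG, Hpgd held GGGCGG and TATAAA, and Pla2g4a and Ptger2 held no match. The deposited row of Ptgs2 begins at 150100124, downstream of the RefSeq start and beyond the window's end at 150100080. All 4 motifs found thus lie upstream of that row. The bases between were not searched, so TATAAA is missing only from the window. A match of letters does not show that a factor binds.

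Of the terminal synthases, Ptges did not pass the test and Ptgis stood at the threshold. Ptges, the inducible synthase of prostaglandin E, had 9.17, 8.87 and 9.6 CPM in Dia2 replicates 1, 2 and 3, against 9.22, 9.25 and 8.07 CPM in the control replicates. The groups overlapped, and the log2 fold change was 0.06 ± 0.08 (SE, edgeR adjusted p = 0.568) with a 95% interval of -0.10 to 0.21. Ptgis, which encodes prostacyclin synthase, had 3.22, 3.23 and 3.25 CPM in the Dia2 replicates, against 2.63, 2.9 and 2.32 CPM in the control replicates. All Dia2 libraries were above all controls, by a log2 fold change of 0.30 ± 0.12 (SE, edgeR adjusted p = 0.0452). This call was lost in 10 of 17 alternative analyses, among them without control replicate 3 (0.22, adjusted p = 0.134) and with DESeq2 (0.30, adjusted p = 0.0581). The Ptges row lies at chr2:30889471-30903297 and the Ptgis row at chr2:167203196-167240537. Exons of genes on the opposite strand cover 6.08% of the exonic bases of Ptgis (the noncoding 1110018N20Rik) and 3.81% of those of Ptgs1 (Gm43621) in GENCODE M21. Those exonic bases number 2567 for Ptgis and 3884 for Ptgs1, whereas the deposited rows list lengths of 1751 and 2864. The overlap of the counted bases may therefore differ.

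Hpgd encodes the dehydrogenase that starts the inactivation of prostaglandins, and its transcript was scarce. It had 20, 50 and 40 counts in Dia2 replicates 1, 2 and 3, against 18, 10 and 8 counts in the control replicates. Scaled to library size these were 0.266, 0.521 and 0.427 CPM in the Dia2 replicates, against 0.16, 0.122 and 0.116 CPM in the control replicates. The groups did not overlap, though Dia2 replicate 1 was nearer to the controls than the other Dia2 libraries were. The log2 fold change was 1.59 ± 0.38 (SE, edgeR adjusted p = 0.00347), or 3.0-fold higher. The gene passed the low-count filter through its Dia2 values, and a floor of 6 counts corresponds to 0.0534 to 0.087 CPM in these libraries, so the control level is poorly fixed. The row lies at chr8:56294552-56321046.

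Among the receptors of prostaglandin E, Ptger4 fell and Ptger1 rose. Ptger4, the EP4 receptor, had 9.2, 9.29 and 8.98 CPM in Dia2 replicates 1, 2 and 3, against 15.6, 16.1 and 15.6 CPM in the control replicates. The spread within each group was small beside the gap, and the log2 fold change was -0.78 ± 0.06 (SE, edgeR adjusted p = 4.5e-07), or 1.72-fold lower. Ptger1, the EP1 receptor, had 21.2, 20.3 and 21.6 CPM in the Dia2 replicates, against 15.8, 14.9 and 14.2 CPM in the control replicates. Every Dia2 library was above every control library, with a log2 fold change of 0.49 ± 0.06 (SE, edgeR adjusted p = 2.93e-05), or 1.4-fold higher. The sources used here do not say whether strand was used in counting, so reads of genes that overlap on opposite strands cannot be told apart, and this limits the receptor values and the shares made from them. Opposite-strand exons of the pseudogene Gm15937 and of Ttc33 cover 15.3% and 1.23% of the exonic bases of Ptger4. These number 6648 in GENCODE M21, whereas the deposited row lists a length of 2966, so the overlap of the counted bases may differ. The Ptger4 row lies at chr15:5233404-5243831 and the Ptger1 row at chr8:83666640-83670103.

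The other EP receptors were at the limit of detection and were not tested. Ptger2, the EP2 receptor, had 0 counts in all 3 Dia2 libraries, against 6, 0 and 2 counts in control replicates 1, 2 and 3. Ptger3, the EP3 receptor, had 0, 2 and 0 counts in Dia2 replicates 1, 2 and 3, against 0 in all 3 control libraries. Neither gene exceeded the floor of 6 counts in any library, so no fold change is given. Of the receptors known to raise cyclic AMP in response to prostaglandin E, Ptger4 was therefore the one measured above the floor. Their rows lie at chr14:44988111-45003820 for Ptger2 and chr3:157566892-157644758 for Ptger3.

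The summed RPKM of the EP receptor genes was nearly the same in both groups, at 10.96 ± 0.519 in Dia2 and 10.7 ± 0.75 in control libraries (SD, n = 3 each), but its make-up differed. Ptger4 held 23.3%, 24.3% and 22.6% of the sum in Dia2 replicates 1, 2 and 3, against 40.8%, 43.2% and 43.4% in the control replicates. The difference was -19.1 percentage points, with p = 0.1 in a two-sided exact permutation test, again the smallest p that 3 libraries against 3 allow.

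Ordered by mean RPKM, the Dia2 libraries ran Pla2g4a (20.1 ± 0.459), Ptgs1 (18.1 ± 0.519), Ptger1 (8.39 ± 0.468), Ptgs2 (5.86 ± 0.174), Ptger4 (2.56 ± 0.0963), Ptges (2.1 ± 0.145), Ptgis (1.53 ± 0.073) and Hpgd (0.197 ± 0.0677; SD, n = 3 each). In the control libraries the order was Ptgs1 (24.2 ± 2.41), Pla2g4a (22.9 ± 0.697), Ptgs2 (14.2 ± 1.7), Ptger1 (6.14 ± 0.54), Ptger4 (4.53 ± 0.251), Ptges (2.07 ± 0.242), Ptgis (1.28 ± 0.189) and Hpgd (0.066 ± 0.0136). Ptgs2 and Ptger1 thus exchanged places, as did Pla2g4a and Ptgs1, whose control values overlapped. Neighbours in these orders did not overlap in single libraries, except Ptgs1 and Pla2g4a in the control group.

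The 3′ untranslated regions of both genes that fell most, Ptgs2 and Ptger4, each held 1 copy of a word that matches the seed of the siRNA's antisense strand. An siRNA strand can lower unintended transcripts through a short seed match in the 3′ UTR, as a microRNA does. The Dia2 siRNA as stated in the labels is shown first, with capitals on bases 18 to 24, which are the target of bases 2 to 8 of its antisense strand, followed by the sites of the same word in the 10 genes.
Dia2 siRNA: cagagtccatgattcagAACTTAAt
Ptgs2 site, chr1:150107764-150107770, plus strand: aattagttagAACTTAAttgattaaaa
Ptger4 site, chr15:5233690-5233696, minus strand: catcctttaaAACTTAAagagaaagac
Coordinates are those of the capitals in GRCm38, and the letters come from GENCODE M21 transcripts. The word was in an annotated 3′ UTR of 2 of the 4 genes that fell and of 0 of the 3 that rose, and in 13.9% of 12085 tested genes with an annotated 3′ UTR. A longer 3′ UTR has more room for a word, and this share was not matched for length. The longest annotated 3′ UTR had 2445 bases for Ptgs2 and 1233 for Ptger4. Without the word were Pla2g4a (443 bases) and Ptgs1 (921), which fell, and Ptgis (417), Hpgd (838) and Ptger1 (3220), which rose.

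A further pair of overlapping words, TATGTGA and ATGTGAA, had been noted in earlier work in strongly lowered genes of these same libraries, so their presence is no independent evidence. TATGTGA occurred 3 times in the annotated 3′ UTR of Ptgs2, and ATGTGAA once in Ptgs2 and 2 times in Ptger4. The Ptgs2 site at chr1:150108086-150108092 lies beyond the end of the deposited row, which is at 150108012. Sites of these words are shown, with the words in capitals.
Ptgs2 site, chr1:150106083-150106089, plus strand: aatgtatgaaTATGTGAgtgttgttac
Ptgs2 site, chr1:150108086-150108092, plus strand: tcaggttaagTATGTGActgctacagt
Ptger4 site, chr15:5234257-5234263, minus strand: aaagcatgaaATGTGAAtttttattgt
Ptger4 site, chr15:5233990-5233996, minus strand: agtatttaagATGTGAAaaatgaacaa
A further word from the same earlier work, GCAGTAC, was in 0 of the 4 genes that fell, 0 of the 3 that rose and 6.21% of all tested genes with an annotated 3′ UTR. Of these, 13.7% held TATGTGA and 18.6% ATGTGAA. The second of these was also in the 3′ UTR of Hpgd, which rose, and TATGTGA in that of the unmeasured Ptger2. Ptgs1 and Pla2g4a fell and held none of the 3 words. Whether the siRNA acted on any of these transcripts through such sites was not tested, and it cannot be told apart from an effect of lower Dia2 with a single siRNA.

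The remaining TATGTGA of Ptgs2 directly follows an AU-rich element, the kind of sequence through which proteins such as those of Zfp36 and Elavl1 set the stability of the Ptgs2 transcript. Capitals here mark the motif TTATTTATT, and the lower-case letters after it spell the word.
Ptgs2 site, chr1:150105800-150105808, plus strand: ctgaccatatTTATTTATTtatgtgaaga
The 3′ UTR of Ptgs2 is 2445 bases long and held 14 copies of the pentamer ATTTA, which 71.4% of the tested genes with an annotated 3′ UTR held. Among genes named below, Ptgfr, which rose, held 14 copies and Creb1, which fell, 17. Their longest 3′ UTRs had 5122 and 7170 bases. TTATTTATT was in the 3′ UTR of 9.05% of the tested genes.

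Beyond the 10 genes, 87 genes in 8 lists of the wider pathway were looked at, of which 72 were tested, with 16 higher, 26 lower and 30 not past the threshold. The called share of 58.3% was near the 59.2% over all genes tested, so the counts below describe these genes and set no list apart. Their median log2 fold change was -0.12, against 0.01 over all tested genes.

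Of 10 tested genes that free and handle arachidonic acid, 3 were higher and 4 lower, close to the 29.3% and 29.9% of all genes tested. Acsl4, which activates arachidonic acid for storage in phospholipids, had 41.0, 38.5 and 38.8 CPM in Dia2 replicates 1, 2 and 3, against 258, 254 and 310 CPM in the control replicates. The groups lay far apart, and the log2 fold change was -2.80 ± 0.07 (SE, edgeR adjusted p = 9.65e-11). Mgll, a lipase that releases arachidonic acid from a monoglyceride, rose to 2.06 ± 0.128 CPM in Dia2, against 0.52 ± 0.0589 CPM in control libraries (log2 fold change 1.99). The calcium-independent phospholipase gene Pla2g6 fell (-0.59), and Pla2g16, now named Plaat3, rose (0.54).

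Other prostanoid synthases stayed mostly below the threshold, with 0 higher, 1 lower and 6 not past it out of 7 tested. The carbonyl reductase gene Cbr1 was the lower one (-0.35), and 2 were lower without Dia2 replicate 1 or without control replicate 3. The further prostaglandin E synthase genes Ptges2 and Ptges3 were at -0.10 and -0.03 on the log2 fold change scale (adjusted p = 0.261 and 0.706, edgeR), with 95% intervals of -0.25 to 0.04 and -0.18 to 0.11.

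Of 4 tested receptors for other prostanoids, 2 were higher and 1 lower. Ptgir, the prostacyclin receptor, had 0.904, 1.25 and 1.18 CPM in Dia2 replicates 1, 2 and 3, against 3.42, 3.8 and 3.63 CPM in the control replicates. Tbxa2r, the thromboxane receptor, had 3.24, 3.27 and 3.27 CPM in the Dia2 replicates, against 1.23, 1.1 and 1.16 CPM in the control replicates. Neither gene's groups overlapped, and the log2 fold changes were -1.69 ± 0.14 for Ptgir (edgeR adjusted p = 1.03e-06) and 1.48 ± 0.13 for Tbxa2r (edgeR adjusted p = 1.01e-06). Ptgfr, the receptor of prostaglandin F, was the most abundant of them by counts and rose less (0.32). Ptgir couples like EP4 to cyclic AMP, whereas the thromboxane receptor and the prostaglandin F receptor act mainly through calcium, as EP1 does. Whether signalling through any of these receptors changed was not tested.

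Genes that move and break down prostaglandins were lower in 3 of 5 and higher in 1. The importer gene Slco2a1 rose to 266 ± 5.96 CPM in Dia2, against 211 ± 24.8 CPM in control libraries (log2 fold change 0.33), and the exporter gene Abcc4 fell (-0.30). The reductase genes Ptgr2 (-0.44) and Zadh2, now named Ptgr3 (-0.61), which act after Hpgd, fell. In the lipoxygenase and leukotriene list 3 of 8 tested genes were higher and 1 lower, or 2 lower when Dia2 replicate 1, control replicate 1 or control replicate 3 was left out. Alox5, the lipoxygenase that starts leukotriene synthesis from the same fatty acid, had 16.4, 16.0 and 14.6 CPM in Dia2 replicates 1, 2 and 3, against 7.21, 8.77 and 7.02 CPM in the control replicates (log2 fold change 1.03 ± 0.09, edgeR adjusted p = 1.18e-06). Each Dia2 library thus exceeded each control library. Ltc4s, the leukotriene C synthase, rose as well (1.34), as did Alox12 (0.90), a gene near 1 CPM, while the hydrolase gene Lta4h fell (-0.19). Alox5ap, whose product presents arachidonic acid to the Alox5 enzyme, was near the floor, at 0.135 CPM in Dia2 and 0.228 CPM in control libraries, and did not pass.

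All 14 regulators of Ptgs2 moved less than Ptgs2 itself. The call was higher for 2 of the 14, lower for 5, and missed by 7, beside 29.3% higher and 29.9% lower over all genes tested. Zfp36, whose product destabilises AU-rich transcripts, fell to 9.23 ± 0.41 CPM in Dia2, against 13.97 ± 0.98 CPM in control libraries (log2 fold change -0.60). The interleukin-1 receptor gene Il1r1 rose (0.30), Khsrp, a further AU-rich binding protein, fell (-0.28), and Creb1, the cyclic AMP response factor, fell (-0.21), a call that was lost without Dia2 replicate 2 or 3. The counts of this list depended on the libraries: 1 was higher and 8 were lower without control replicate 3, and 1 was higher and 3 were lower without Dia2 replicate 2 or without Dia2 replicate 3. Without control replicate 1, 1 was higher.

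Of 11 genes known to respond to cyclic AMP, 2 were higher and 5 lower, beside 29.3% and 29.9% of all genes tested, and 1 was higher when Dia2 replicate 1, Dia2 replicate 3 or control replicate 2 was left out. Pde4b, a phosphodiesterase that degrades cyclic AMP, had 2.52, 2.31 and 2.18 CPM in Dia2 replicates 1, 2 and 3, against 10.7, 9.18 and 11.5 CPM in the control replicates. The groups lay far apart, with a log2 fold change of -2.17 ± 0.11 (SE, edgeR adjusted p = 1.54e-08). The nuclear receptor gene Nr4a1 (-1.24) and Crem (-0.64), a factor of the Creb family, fell. The scarce Nr4a3 fell (-1.37) but lost its call in 5 of 15 alternatives. Its groups overlapped, with 0.106, 0.0833 and 0.15 CPM in the Dia2 replicates, against 0.356, 0.365 and 0.145 CPM in the control replicates. Many other signals also act on these genes, so their levels are no measure of cyclic AMP.

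Among secreted immune modulators, 3 of the 13 genes tested rose with Dia2 siRNA and 6 fell, beside 29.3% and 29.9% of all genes tested. Il6, which encodes interleukin-6, was near the floor with 0.0266, 0.125 and 0.0641 CPM in Dia2 replicates 1, 2 and 3, against 0.427, 0.463 and 0.522 CPM in the control replicates (log2 fold change -2.62 ± 0.44, edgeR adjusted p = 0.000265). The gene passed the low-count filter through its control values, with 2, 12 and 6 counts in the Dia2 replicates, against 48, 38 and 36 in the control replicates, so the size of its fall is poorly fixed: the log2 fold change was -3.28 without Dia2 replicate 2. Il1rn, the interleukin-1 receptor antagonist, fell to 163 ± 2.05 CPM in Dia2, against 401 ± 43.0 CPM in control libraries (-1.30), and the chemokine gene Ccl2 fell (-1.11). Cxcl12, a chemokine gene and stem cell niche factor, rose (1.36). Of the 18 named genes of the wider lists that fell, 3 held TATGTGA, 2 ATGTGAA and 1 AACTTAA in the 3′ UTR, and of the 10 that rose 2, 4 and 1 did. Acsl4, Creb1, Crem, Pde4b and Zadh2 were the holders that fell, and Ptgfr, Slco2a1, Pla2g16, Alox12 and Cxcl12 were the holders that rose, while the lowered Il6, Il1rn and Ccl2 held none of the 3. GCAGTAC was in 0 of the 18 that fell and in 1 of the 10 that rose.

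**Figure D3:**
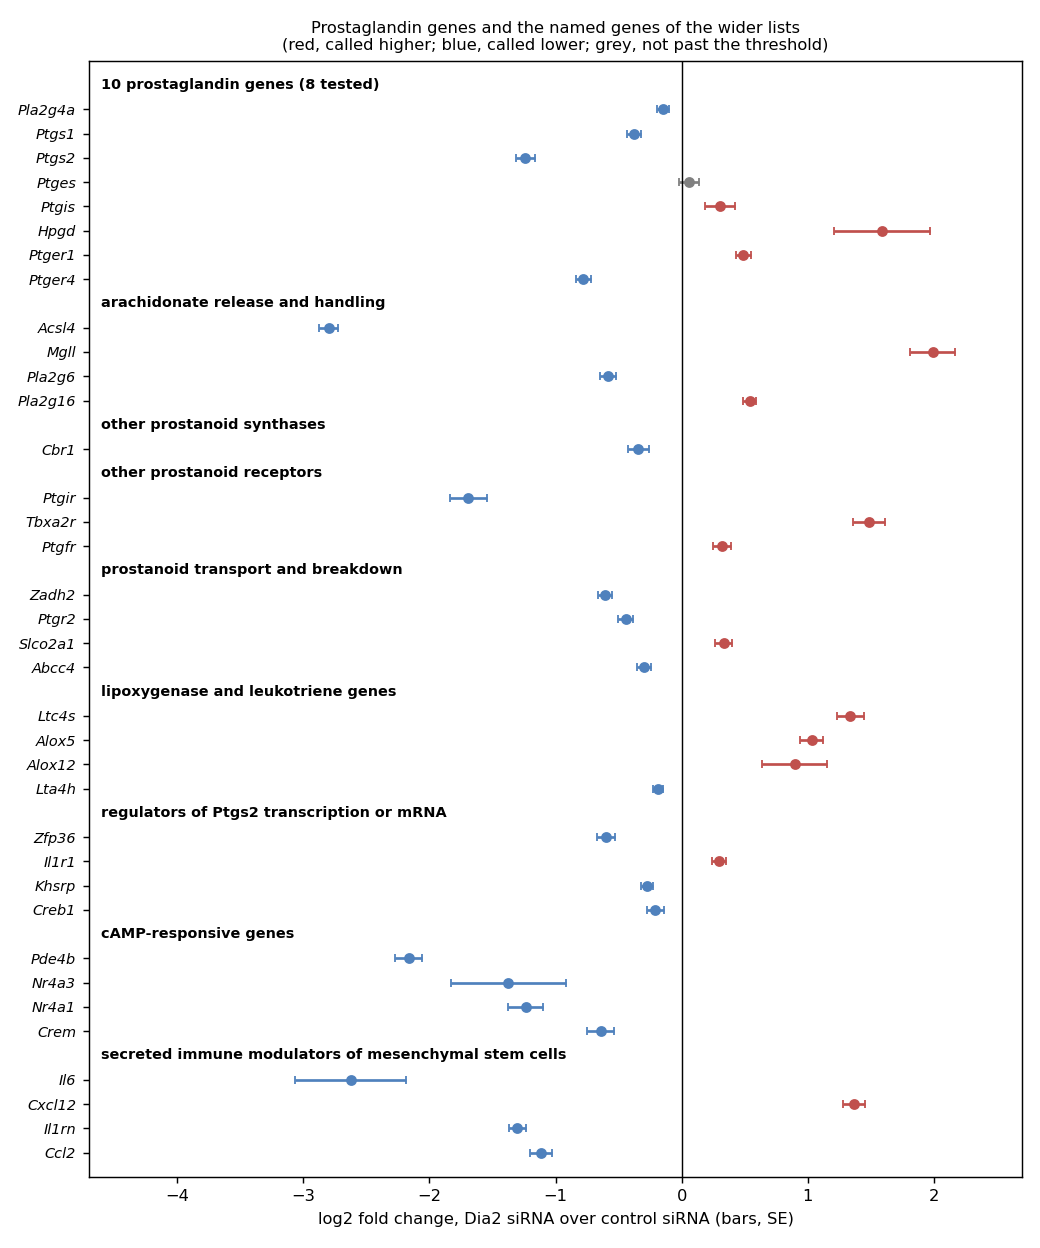
Log2 fold changes (Dia2 siRNA over control siRNA) with their SE for the 8 tested prostaglandin genes and for up to 4 called genes with the largest change from each wider list; red marks genes called higher, blue genes called lower and grey a gene not past the threshold. Ptgs2, Ptger4, Acsl4, Ptgir and Pde4b lie left of 0, and Hpgd, Ptger1, Tbxa2r, Alox5 and Ltc4s right of it.

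Over the 6 libraries, the genes whose centred log2 CPM profile lay closest to that of Ptgs2 were Otud4, Ccl2 and Tmem183a, at root mean square distances of 0.07, 0.08 and 0.08 log2 units. Those closest to Hpgd were Aplp1, Apol6 and Mtss1l, at 0.23, 0.26 and 0.26. These profiles are dominated by the difference between the groups, which the libraries share.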

How the data were processed

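RNA sequencing of 6 libraries was analysed, 3 with Dia2 siRNA and 3 with control siRNA, grouped and numbered by their titles. The deposited table gives a whole-number gene count and an RPKM value per gene and library, per the file headers. The submitters' processing notes name bcl2fastq, TopHat2 2.0.6 and HTSeq with no role, and the builds hg19 and GRCh37, which are human. Of 20762 rows whose symbol matched, 99.3% overlapped that gene in GRCm38.p6, so coordinates were read as GRCm38. The sources used here name no annotation, strand setting or rule for multiply matching reads. Every value in the deposited count columns is even. RPKM, as deposited, is each count over its listed length and a single total for that library, and served only for levels between genes and for shares.

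Genes passing filterByExpr (minimum count 10, total 15) were normalised with TMM and tested with edgeR 4.0.16 (limma 3.58.1, R 4.3.3; quasi-likelihood, robust, no other term), after a check on simulated counts. The SE is the absolute log2 fold change divided by the square root of F, and 95% intervals are 1.96 SE either side. A chi-square test of halved counts checked whether any library repeated another of its group. It gave 6.7 to 85.2 per degree of freedom, so none was taken as a copy and all were kept. Control replicate 3 (77.3 and 85.2) and Dia2 replicate 1 (30.5 and 56.6) differed most from the others of their groups. The floor is 6 counts (3 fragments, if each added 2) and covers counting error only. Alternatives were DESeq2 1.42.0, limma-voom, other scalings and filters, halved counts, a replicate block, and left-out genes or libraries.

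The 10 genes and the lists were chosen with earlier results of these data known. Named are the 10, Diaph3, Acsl4, up to 4 called members of each list with the largest change, and the 3 genes nearest in profile (mean CPM at least 5) to the 2 called genes with the largest change. Marker genes (Thy1, Itgb1, Kit, Cd53, Itgb2, Cd68, Csf1r, Lyz2, Kdr and those at 0), Ptges2, Ptges3 and Alox5ap were named after their values were seen. Promoters are RefSeq's, and 3′ UTRs were taken from GENCODE M21 transcripts with an annotated stop codon. Motifs and words were searched as exact letters.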

Additional observations from a re-analysis of the deposited data

How the results depend on the processing

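Of the 8 tested genes, Ptgs1, Ptgs2, Ptger1 and Ptger4 kept direction and call in all 17 alternatives, Hpgd in the 16 that could test it, and Ptges passed the threshold in none of 17. Ptgis lost its call in 10 (log2 fold change 0.22 to 0.37 over all alternatives) and Pla2g4a in 2 (-0.18 to -0.12). The number of the 10 genes called was 2 or 3 higher and 3 or 4 lower. The wider lists held 22 to 31 lower genes without 1 library, and other named genes changed a call in 7 of 490 values with no reversal. The titles number the replicates 1 to 3 in both groups, and deviations of same-numbered libraries correlated at 0.0036, -0.0014 and -0.084. This check showed no pairing by number. With 3 libraries per group it cannot exclude one, and the labels do not settle it. With a replicate block 7772 genes were called in place of 8380. Ptgis then lost its call (0.31, edgeR adjusted p = 0.065), as did Nr4a3 (-1.31, edgeR adjusted p = 0.0516). The regulators of Ptgs2 had 3 lower genes in place of 5 with upper-quartile factors and with the block. Taken from counts in place of RPKM, the share of Ptgs2 differed by -14.0 and that of Ptger4 by -20.9 percentage points. Without 1 library the differences were -14.0 to -11.4 and -19.9 to -18.6, with a sign that groups without overlap fix beforehand. Depth limits Hpgd, Il6, Nr4a3 and the untested Ptger2 and Ptger3.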
